A study of Mus musculus with 2 samples.

Results

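The genes followed here belong to the TGF-beta and BMP signalling pathways: Gdf3, Bmp4, Tgfb1, Ltbp1, Tgfbr1, Tgfbr2, Eng, Smad6, Smad7 and Fst. Their levels were read across the cell types of the mouse yolk sac in wild-type (WT) and Baf155 CKO embryos. They are 10 of the 33456 genes in the deposited tables, and all 10 had a row in both libraries. They were chosen by values of these same libraries: in an earlier reading, the CKO over WT ratios of Gdf3 and Ltbp1 in progenitor-like cells and the Fst level in a stromal cluster had stood out, and other genes of the pathways were added around them. Every level and ratio below is therefore a description, and none is tested.

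Baf155 is the protein of Smarcc1, a scaffold protein of the chromatin remodeller BAF, the mammalian SWI/SNF. Each genotype was 1 library of droplet-based 5′ single-cell RNA sequencing, from B6 yolk sacs that pooled E9.5 with E10.5 embryos in equal number, dissociated with 0.25% collagenase, frozen, and sorted for live Ter119-negative cells, which depletes late red cells. The control library came from WT animals. No label used here gives the Cre driver, the deleted exon or the number of embryos, and the source is labelled as nuclei although the protocol sorts cells. With 1 library per genotype, a difference between genotypes and a difference between libraries or their embryos cannot be told apart, and each interval below covers counting error only.

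Ligands of this superfamily bind pairs of type I and type II serine/threonine kinase receptors, which phosphorylate receptor Smads. TGF-beta is secreted in a latent form, tied to the matrix by latent binding proteins and released by integrins and thrombospondin. Smad6 and Smad7 are inhibitory Smads, themselves induced by the signal, and follistatin traps activins. In the yolk sac, BMP4 is made by the mesoderm, and loss of Tgfb1, Tgfbr2 or endoglin is known to impair yolk sac vessels and blood.

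The WT library kept 784 of 815 barcodes and the CKO library 841 of 865, with median UMIs of 28186.5 and 28268 per kept cell, and 1 barcode sequence occurred in both. Cells were assigned to 9 classes by marker genes, and 5 classes had at least 20 cells in each library: progenitor-like (152 WT and 91 CKO cells), endothelium-progenitor cells passing both of those gates (20 and 59), endothelium-like (52 and 52), erythroid-like (152 and 251) and stromal-like (245 and 281). The other classes were low-globin erythroid-like (22 and 1), megakaryocyte-like (10 and 51), macrophage-like (41 and 8) and endoderm-like (29 and 3), while 58 WT and 28 CKO cells passed no gate and 3 and 16 were mixed. Among the 10 genes highest over the other cells, each compared class held 1 to 7 of its own gate markers, while the low-globin class held none, and Car1 and Gdf3 itself came first there. Joint clustering put most erythroid-like cells of WT in cluster 5 and of CKO in cluster 11, and most stromal-like cells of WT in clusters 3, 9 and 10 and of CKO in clusters 8 and 15. All 20 WT endothelium-progenitor cells fell in cluster 2 and all 59 CKO ones in cluster 13, while cluster 1 held 50 WT and 30 CKO endothelium-like cells and cluster 13 another 21 of CKO and 0 of WT. Smarcc1 was 125 CPM (UMIs of the gene per 1000000 UMIs of the class) in WT and 49.6 in CKO progenitor-like cells, 56.0 and 7.17 in erythroid-like cells and 97.8 and 30.5 in stromal-like cells, so these CKO classes still held Smarcc1 RNA. Whether the 5′ reads lie in the deleted part cannot be read from the labels used here. The median globin share of cells outside the red lineage was 0.0337% in WT and 0.240% in CKO progenitor-like cells, and UMIs of that kind can come from free RNA.

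Bmp4, Smad7 and Fst were highest in stromal-like cells and Eng and Tgfbr2 in endothelium-like cells. Tgfb1 was highest in megakaryocyte-like cells, with endothelium-progenitor cells next apart from the 1 low-globin CKO cell, and lowest among the compared classes in erythroid-like cells. By counting intervals, megakaryocyte-like cells stood apart from endothelium-progenitor cells in CKO but not in WT. In CKO the intervals of endothelium-progenitor and progenitor-like cells overlapped. The order of the classes differed between the libraries for Ltbp1, highest in stromal-like cells of WT and in megakaryocyte-like cells of CKO, and for Gdf3, highest in low-globin erythroid-like cells of WT and, at 19.3 CPM, in the 8 macrophage-like cells of CKO. Tgfbr1 was spread over all classes.

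**Figure D1:**
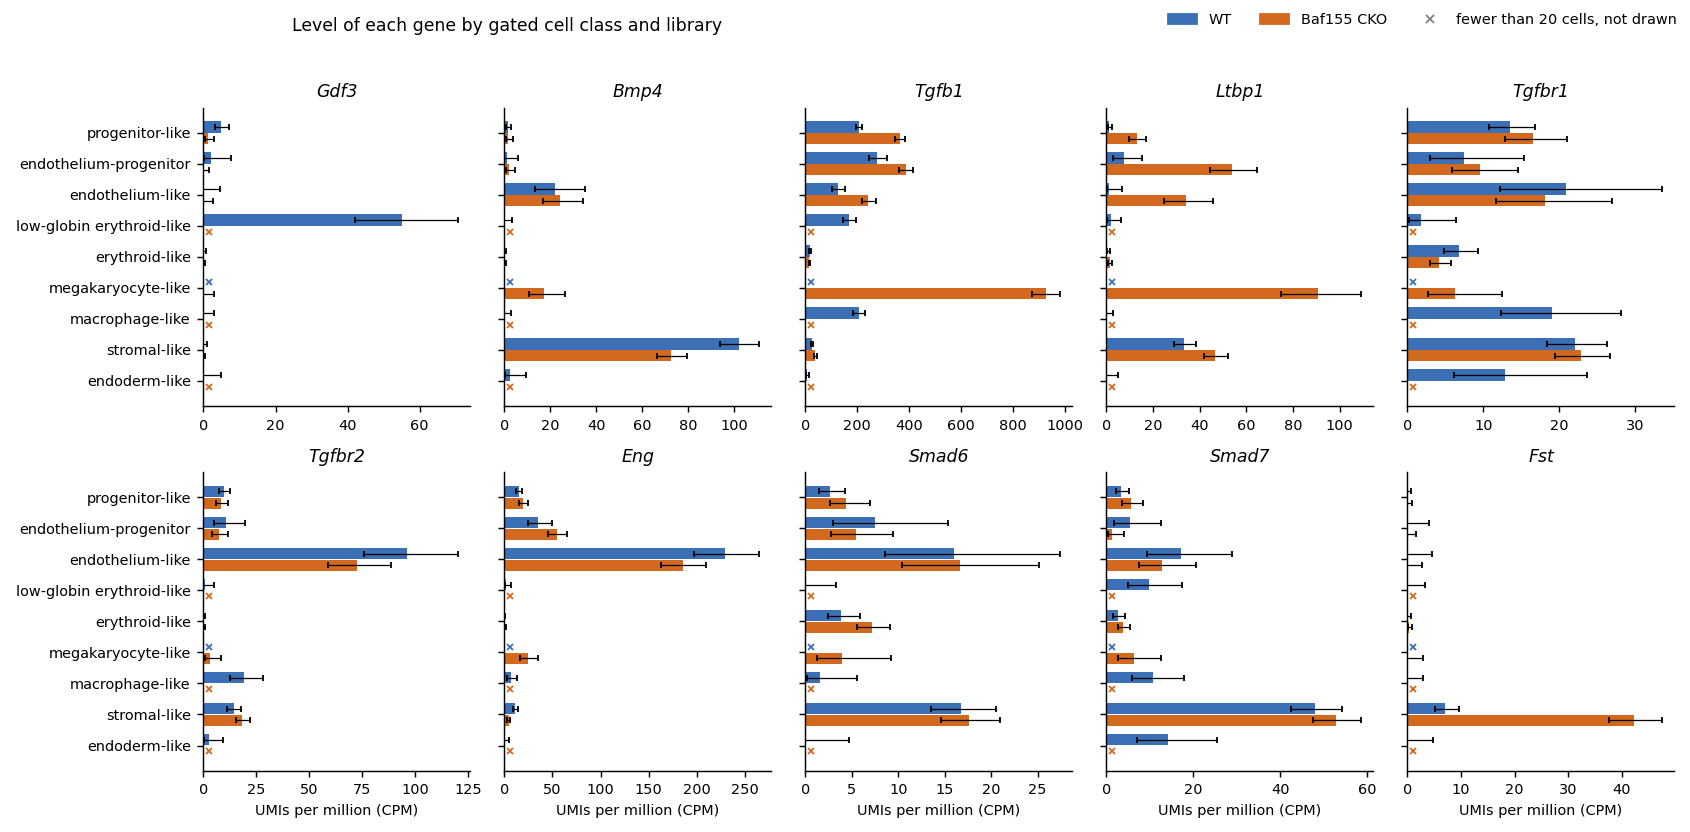
CPM (horizontal axis, starting at 0 and scaled per gene) of each gene in the 9 gated classes, in WT (blue) and Baf155 CKO (orange); black lines are exact Poisson 95% intervals, and a cross marks a class with fewer than 20 cells in that library. Bmp4 reached 102 CPM in WT stromal-like cells, Eng 229 CPM in WT endothelium-like cells and Tgfb1 925 CPM in CKO megakaryocyte-like cells.

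Tgfb1 (chr7:25687002-25705077, plus strand, GRCm38) encodes the founding ligand, and Ltbp1 (chr17:75005568-75392512, plus strand) the latent binding protein that anchors it. Both were higher in CKO than in WT in the progenitor, endothelial and megakaryocyte classes, so the 250 bases upstream of their RefSeq start sites (GRCm38.p6) are shown, 5′ to 3′ on the gene's strand, with 1 window for Tgfb1 and 2 for Ltbp1. The bases that follow the Tgfb1 start were found in a GENCODE transcript of the gene, and those that follow either Ltbp1 start were not. Capitals mark matches, on either strand, to 5 short motifs: the Smad CAGA box CAGACA, the Smad GC element GGCGCC, the ETS core CCGGAA, the GATA site AGATAA and the AP-1 site TGACTCA.

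Tgfb1, chr7:25686752-25687001: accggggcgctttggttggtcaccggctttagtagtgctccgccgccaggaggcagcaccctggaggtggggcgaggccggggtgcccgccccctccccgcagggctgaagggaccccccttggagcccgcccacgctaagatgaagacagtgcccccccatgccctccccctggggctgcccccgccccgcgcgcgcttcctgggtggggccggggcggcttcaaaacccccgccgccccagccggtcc
Ltbp1 upstream start, chr17:75005279-75005528: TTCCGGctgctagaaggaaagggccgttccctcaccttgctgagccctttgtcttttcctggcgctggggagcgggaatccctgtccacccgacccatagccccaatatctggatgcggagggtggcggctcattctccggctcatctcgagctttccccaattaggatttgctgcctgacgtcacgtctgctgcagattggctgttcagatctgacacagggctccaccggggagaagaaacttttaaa
Ltbp1 downstream start, chr17:75178531-75178780: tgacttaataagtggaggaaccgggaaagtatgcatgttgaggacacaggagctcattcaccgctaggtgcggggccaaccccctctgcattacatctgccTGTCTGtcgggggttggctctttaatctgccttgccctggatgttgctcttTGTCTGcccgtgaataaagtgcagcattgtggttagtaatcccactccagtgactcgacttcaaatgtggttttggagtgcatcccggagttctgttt

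The Tgfb1 window held none of the 5 motifs, the Ltbp1 upstream window 1 ETS core and the Ltbp1 downstream window 2 CAGA boxes. Of 32851 windows of the same length, 17.1% held a CAGA box, 9.59% a GC element, 12.0% an ETS core, 9.99% a GATA site and 4.46% an AP-1 site. The GC content was 75.2% for Tgfb1, above the 95th percentile of 73.6% over all windows, and 56.8% and 50.8% for the Ltbp1 windows. These are letter matches in a window and not evidence of binding, and the counts do not say which Ltbp1 start was used.

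Tgfb1 was the most abundant of the 10 genes. In progenitor-like cells its level was 205 CPM (194 to 217, 1257 UMIs) in WT and 363 CPM (345 to 382, 1492 UMIs) in CKO, a ratio of 1.77 (1.64 to 1.91). Per progenitor-like cell, the median was 193 CPM in WT and 341 CPM in CKO, with ranges from 0 to 665 and from 85.7 to 1120, so the cells of the libraries overlapped widely. In endothelium-like cells it was 126 CPM in WT and 243 CPM in CKO, a ratio of 1.93 (1.54 to 2.44), and in endothelium-progenitor cells 277 and 386 CPM, a ratio of 1.39 (1.21 to 1.61). Stromal-like cells held less, 24.5 and 38.5 CPM (ratio 1.57, 1.27 to 1.94). Erythroid-like cells had 17.2 and 14.2 CPM, with a ratio of 0.827 (0.631 to 1.09) whose interval spans 1. The highest level of all was in megakaryocyte-like cells, 284 CPM (236 to 338) in the 10 WT cells and 925 CPM (873 to 980) in the 51 CKO cells. Megakaryocyte markers also differed between those cells: the sum of 10 markers was 1574 CPM in WT, with 1 marker at 0, and 11984 CPM in CKO, with none at 0. Their part in the difference was not tested.

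Ltbp1 showed the widest gap between the libraries. In progenitor-like cells there were 7 UMIs in WT (1.14 CPM) and 53 in CKO (12.9 CPM), a ratio of 11.3 (5.11 to 29.4). In endothelium-progenitor cells the level was 7.46 CPM in WT and 53.8 CPM in CKO, a ratio of 7.21 (3.39 to 18.3) that was 3.61 with a stricter gate, from 3 and 72 UMIs. The WT and CKO cells of that class shared no cluster. In endothelium-like cells 1 UMI (1.23 CPM) in WT stood against 45 UMIs (34.0 CPM) in CKO, a ratio of 27.6 (4.71 to 1116). Within cluster 1, where most of the endothelium-like cells of both libraries lay, Ltbp1 was 1 UMI in WT (1.32 CPM) and 4 UMIs in CKO (4.95 CPM, 1.35 to 12.7). Megakaryocyte-like cells had 9.01 CPM in WT, all 4 UMIs from 1 cell, and 90.8 CPM in CKO. Stromal-like cells expressed it in both libraries, at 33.4 and 46.7 CPM, a ratio of 1.40 (1.17 to 1.68). The gap thus lay in the blood and endothelial classes, where WT levels were near the counting floor. Cells with a Ltbp1 UMI made up 4.61% (1.87 to 9.26) and 31.9% of the progenitor-like class (WT and CKO), and 1.32% (0.160 to 4.67) and 4.78% of erythroid-like cells, at median depths of 41821 and 42536 UMIs against 33226 and 35270. The intervals of the WT pair overlap, and 0 of 41 WT macrophage-like cells held a UMI. After thinning each cell to 10000 UMIs the progenitor-like shares were 1.36% and 17.6%. The sum of 10 stromal markers, a class that expresses Ltbp1, was 24.0 and 82.7 CPM in progenitor-like cells of WT and CKO with 1 marker at 0 in each, and 35.7 and 132 CPM in endothelium-like cells with 4 and 1 at 0, and its part in the Ltbp1 difference was not tested. In endothelium-like cells the ratio was 3.74 by whole clusters and 2.69 in Xist-positive cells, and in progenitor-like cells it was 53.7 in Xist-positive and 3.06 in Y-positive cells.

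The progenitor-like difference in both genes depended on which cells were called progenitors. Markers of other lineages moved with it: in progenitor-like cells 10 endothelium markers summed to 100 and 232 CPM (WT and CKO) and 10 megakaryocyte markers to 208 and 380 CPM, with 1 marker of each list at 0 in CKO and none in WT. When both libraries were clustered together, 31 of the 91 CKO progenitor-like cells fell in cluster 2, which also held 118 of the 152 WT ones, and 56 fell in cluster 13, made of 160 CKO cells and 1 WT cell. Tgfb1 was 194 CPM (182 to 207) in the WT cells of cluster 2, 233 CPM (211 to 257) in its CKO cells and 461 CPM (432 to 490) in the CKO cells of cluster 13. Ltbp1 was 1.06 CPM, 0.569 CPM and 22.4 CPM (16.5 to 29.7) in the same groups. The CKO progenitor-like cells that shared a cluster with WT cells therefore had levels closer to theirs, and the higher levels lay in the cells that did not. The same groups differed in Smarcc1, at 130, 92.7 and 11.7 CPM, in the endothelium marker Ecscr, at 18.9, 15.4 and 164 CPM, and in the megakaryocyte marker Pf4, at 14.8, 31.3 and 132 CPM. These genes were among those clustered, a cluster made mostly of 1 library may reflect that library, and the part of the lineage markers was not tested.

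**Figure D2:**
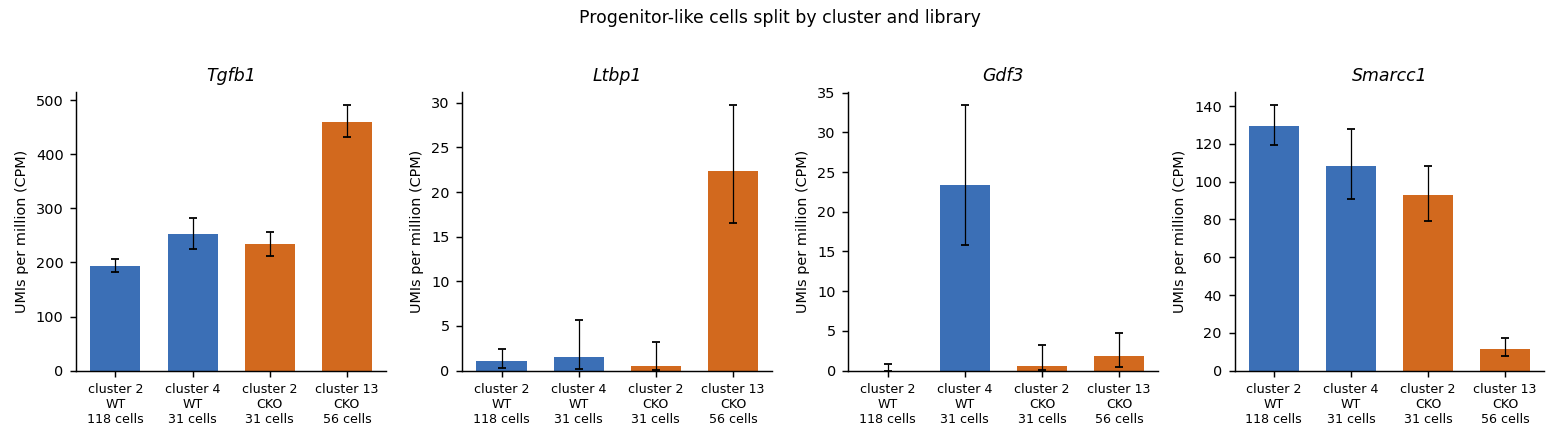
CPM (vertical axis, from 0) of Tgfb1, Ltbp1, Gdf3 and Smarcc1 in progenitor-like cells, split by joint cluster and library, with exact Poisson 95% intervals and the number of cells under each bar. For Tgfb1 and Ltbp1, CKO cells of cluster 2 lie closer to its WT cells than CKO cells of cluster 13 do, at 461 and 22.4 CPM. The Tgfb1 intervals of WT and CKO in cluster 2 do not overlap, and WT cells of cluster 4 stand at 253 CPM (226 to 282). Gdf3 is highest in the WT cells of cluster 4.

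Calling whole clusters in place of gated cells gave a Tgfb1 ratio of 1.07 and a Ltbp1 ratio of 0.410 from 15 WT and 2 CKO UMIs. Leaving out progenitor-like cells with 2 or more megakaryocyte or endothelium markers, a choice made after seeing the data, left 55 WT and 10 CKO cells and a Tgfb1 ratio of 1.25. Among CKO progenitor-like cells, Tgfb1 was 454 CPM (419 to 492) in the 36 with no Smarcc1 UMI and 279 CPM (256 to 303) in the 36 with 2 or more, whose median depths were 37442 and 55602.5 UMIs, so the cells without a Smarcc1 UMI were also shallower. The 19 cells with 1 Smarcc1 UMI had 422 CPM at a median depth of 33109. Both sexes were in each library, and Tgfb1 was 216 and 472 CPM in Xist-positive and 191 and 305 CPM in Y-positive progenitor-like cells of WT and CKO. The direction was the same in both.

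Gdf3 (chr6:122605403-122610087, minus strand), a ligand of the Nodal and activin branch that can also inhibit BMPs, marked a WT population. In WT, 62 of its 119 UMIs came from the 22 low-globin erythroid-like cells, at 55.0 CPM (42.2 to 70.5), and 19 of those cells (86.4%) held at least 1 UMI. Progenitor-like cells had 4.90 CPM and erythroid-like cells 0 UMIs in 152 cells, an upper limit of 0.549 CPM at 3 counts. Within the red lineage, Gdf3 RNA was thus seen in cells with little globin and not in globin-rich ones. It was not confined to that lineage in WT: the 10 megakaryocyte-like cells had 6 UMIs (13.5 CPM). Cells outside every gate held 18 UMIs. In CKO there were 16 UMIs in all, and only 1 cell passed the low-globin gate. The CKO over WT ratio in progenitor-like cells was 0.248 (0.0752 to 0.646), from 30 and 5 UMIs. It was 1.03 by whole clusters, from 3 and 1 UMIs, 0.218 in Y-positive cells, from 10 and 2 UMIs, 1.07 in Xist-positive cells, from 6 and 3 UMIs, and 1.14 without the cells that carry other lineage markers, from 3 and 1 UMIs.

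By cluster, 113 of the 119 WT UMIs fell in cluster 4, which held 80 WT and 6 CKO cells, and 0 in the 118 WT progenitor-like cells of cluster 2. Cells were also split by Gdf3 itself, over the progenitor-like, endothelium-progenitor, low-globin erythroid-like, megakaryocyte-like and ungated classes. The 48 WT cells with a Gdf3 UMI had 152 CPM of Klf1, the red cell regulator, against 9.03 CPM in the 214 without, 113 against 15.2 CPM of Gata1, and 55.7 against 5.55 CPM of the erythropoietin receptor Epor. They had less Spi1, the myeloid regulator, at 55.7 against 293 CPM, while Tgfb1 was 201 CPM in both. Klf1, Gata1 and Epor are markers of the erythroid gate behind the low-globin class, and Spi1 of the progenitor-like gate. The gates therefore set part of these differences in advance, and nothing beyond a description is read from them. Median depths were 49211.5 UMIs in the WT cells with a Gdf3 UMI and 38326.5 in those without. The 6 CKO cells with a Gdf3 UMI differed in kind, with 526 CPM of Spi1, 6.15 CPM of Klf1 and, as the gene highest over the rest, Stfa1. In addition, 2 of the 8 CKO macrophage-like cells held 8 Gdf3 UMIs, 7 of them in 1 cell, against 0 UMIs in 41 WT macrophage-like cells.

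Bmp4 (chr14:46383520-46390669, minus strand), the ventral mesoderm ligand, was a stromal gene. Stromal-like cells held 92.3% of its UMIs in WT and 80.4% in CKO. Its level there was 102 CPM (93.7 to 111) in WT and 72.6 CPM (66.4 to 79.3) in CKO, a ratio of 0.713 (0.631 to 0.805), and 82.4% and 68.0% of cells had a UMI at median depths of 22588 and 21934. After thinning the shares were 65.2% and 45.0%. Endothelium-like cells followed with 22.2 and 24.2 CPM, a ratio of 1.09 (0.595 to 2.07), but by sex they went from 21.2 to 52.0 CPM in Xist-positive cells (7 and 32 UMIs) and from 23.9 CPM (5 UMIs) to 0 UMIs in Y-positive cells. Erythroid-like cells had 0 UMIs in 152 WT and 2 in 251 CKO cells, while CKO megakaryocyte-like cells had 22 UMIs (17.4 CPM) and the mixed CKO cells 52. The 0.713 stromal ratio lay between 0.629 and 0.792 under all 12 alternatives computed for it. Split by joint cluster, Bmp4 was 106 CPM (93.1 to 121) in WT and 104 CPM (75.2 to 141) in CKO in cluster 3, and 93.5 and 86.1 CPM in cluster 9. In cluster 8 it was 130 CPM (80.3 to 198) and 76.2 CPM (64.8 to 88.9), and in cluster 10 it was 130 CPM (102 to 162) and 44.3 CPM (28.1 to 66.4). The intervals were thus apart only in cluster 10 of these 4.

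Tgfbr2 (chr9:116084293-116175360, minus strand), the type II TGF-beta receptor, was highest in endothelium-like cells, at 96.1 CPM (76.0 to 120) in WT and 72.6 CPM (58.8 to 88.7) in CKO, a ratio of 0.756 (0.555 to 1.03) whose interval spans 1. The ratio was 1.09 by whole clusters and 0.529 by the mean of per-cell CPM. Cells with a UMI were 76.9% and 53.8% of the class at median depths of 13184.5 and 23404 UMIs, and 51.4% and 32.0% after thinning, in the 35 and 50 cells deep enough, with overlapping intervals. Macrophage-like cells came next in WT at 19.1 CPM, not separable from the 14.3 CPM of stromal-like cells by their intervals, and erythroid-like cells had 0 and 2 UMIs. Tgfbr1 (chr4:47353222-47414931, plus strand), the type I receptor, ranged in WT from 1.77 CPM in low-globin erythroid-like cells to 22.1 CPM in stromal-like cells, and the intervals of endothelium-like, macrophage-like and stromal-like cells overlapped. Its ratio was 1.04 (0.813 to 1.32) in stromal-like and 1.22 (0.872 to 1.70) in progenitor-like cells, and 0.616 (0.383 to 0.994) in erythroid-like cells. Globin-rich cells of WT thus held Tgfbr1 but no Tgfbr2 UMI in 152 cells.

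Eng (chr2:32646595-32682669, plus strand), endoglin, an endothelial co-receptor for TGF-beta and BMP9, was 229 CPM (197 to 264) in WT and 185 CPM (163 to 210) in CKO endothelium-like cells, a ratio of 0.809 (0.666 to 0.984). Xist-positive and Y-positive cells lay on either side of 1 here, at 1.17 and 0.586. Cluster 1 held most endothelium-like cells of both libraries. There Eng was 244 CPM (210 to 281) in WT and 268 CPM (234 to 307) in CKO, with overlapping intervals. Endothelium-progenitor cells had 35.2 and 54.3 CPM, a ratio of 1.54 (1.04 to 2.34) that was 0.943 with a stricter gate, from 11 and 69 UMIs. Stromal-like cells held 11.3 CPM (64 UMIs) in WT and 4.39 CPM (30 UMIs) in CKO, a ratio of 0.389 (0.243 to 0.609), and the ratio stayed between 0.325 and 0.494 under 12 alternatives. By cluster, 61 WT Eng UMIs lay in cluster 3, at 27.2 CPM over 95 WT cells, and 0 in the 99 WT cells of cluster 9. In CKO, cluster 3 had 17.4 CPM (6.99 to 35.8, 7 UMIs in 16 cells), an interval that overlaps the WT level, and cluster 9 had 4.10 CPM (2 UMIs). Endothelium markers in stromal-like cells summed to 158 CPM in WT and 139 CPM in CKO, with 2 of 10 at 0 in WT, and their part in the Eng difference was not tested.

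Smad7 (chr18:75367529-75395935, plus strand) was 48.0 CPM (42.5 to 54.1) in WT and 52.7 CPM (47.4 to 58.4) in CKO stromal-like cells, a ratio of 1.10 (0.935 to 1.29). Smad6 (chr9:63953076-64022059, minus strand), which favours BMP receptors, was 16.8 and 17.6 CPM in stromal-like and 16.0 and 16.6 CPM in endothelium-like cells. Its ratio was 1.87 (1.13 to 3.21) in erythroid-like cells, at 3.84 and 7.17 CPM. That ratio was 2.77 in Xist-positive and 1.28 in Y-positive cells. In cluster 5 Smad6 was 3.85 CPM in WT and 3.12 CPM (0.378 to 11.3, 2 UMIs) in CKO. The CKO cells of cluster 11 had 7.41 CPM. Progenitor-like cells held little of either, at 3.43 and 5.60 CPM of Smad7 and 2.61 and 4.38 CPM of Smad6, and both intervals span 1. The Smad6 ratio there was not stable at these counts, at 3.69 in Xist-positive cells, 0.182 in Y-positive cells (6 and 1 UMIs) and 0.154 by whole clusters (20 and 1 UMIs).

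Fst (chr13:114452290-114458951, minus strand), follistatin, had 97.3% of its CKO UMIs in stromal-like cells, and in WT 40 of 82 there and 42 in cells outside every gate. Stromal-like cells had 7.06 CPM (5.04 to 9.61, 40 UMIs) in WT and 42.3 CPM (37.6 to 47.5, 289 UMIs) in CKO, a ratio of 5.99 (4.30 to 8.56). In the blood and endothelial classes of WT there were 0 UMIs, and CKO had 2 UMIs in 251 erythroid-like cells. The UMIs were uneven: 18 of the 40 WT UMIs came from 1 cell and 54 of the 289 CKO UMIs from another, and without those cells the ratio was 8.87. At least 2 UMIs were seen in 7 WT and 35 CKO stromal-like cells, and in 5 WT cells outside every gate. Fst-positive cells made up 4.49% (2.26 to 7.89, exact binomial interval) of the WT stromal-like class and 20.3% (15.7 to 25.5) of the CKO class, or 4.02% and 13.8% after thinning.

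Cluster 8 held 10 WT and 109 CKO cells and 286 of the 297 CKO Fst UMIs. Its Fst level was 185 CPM (125 to 265, 30 UMIs) in the 10 WT cells and 136 CPM (121 to 153) in the CKO cells. The WT stromal-like cell richest in Fst was among those 10 cells and held most of their Fst UMIs. The counting interval does not cover that, so no order of the libraries is read within the cluster. In cluster 0 Fst was 62.1 CPM in the 26 WT cells, 43 of the 82 WT UMIs, and 0 UMIs in the 12 CKO cells. Fst was one of the genes clustered and the cluster had been seen for its Fst, which makes this a description. Stromal-like cells with 2 or more Fst UMIs had more Wnt4, a Wnt ligand, than those without, 279 against 19.2 CPM in WT and 76.5 against 9.76 CPM in CKO, and more G0s2, 293 against 23.2 and 259 against 54.1 CPM. Bmp4 was 125 against 101 CPM in WT and 99.5 against 69.1 CPM in CKO. Eng was 13.9 CPM (2 UMIs) against 11.2 CPM in WT. In CKO it was 0 UMIs in the 35 cells against 4.96 CPM (30 UMIs) in the other 246. Split by Smarcc1 UMIs, Fst in CKO stromal-like cells was 42.3 CPM in the 176 cells with none, 67.9 CPM in the 58 with 1 and 17.0 CPM in the 47 with 2 or more, at median depths of 20805, 21905 and 29227, so it did not run in 1 direction with Smarcc1.

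**Figure D3:**
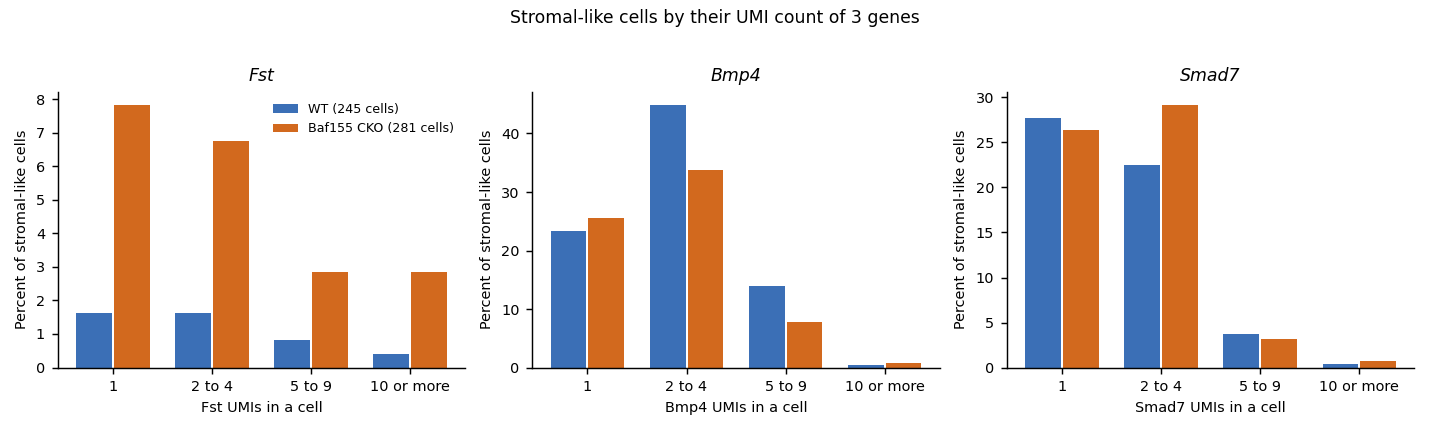
Percent of stromal-like cells (vertical axis, from 0) with 1, 2 to 4, 5 to 9 or 10 or more UMIs of Fst, Bmp4 or Smad7, in 245 WT (blue) and 281 Baf155 CKO (orange) cells; cells with 0 UMIs make the rest. Fst reached 10 or more UMIs in 1 WT and 8 CKO cells, Bmp4 was lower in CKO from 2 to 9 UMIs, and Smad7 was close in both.

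Counted together, few of the 10 genes passed 2-fold in a class. With genes counted from 20 UMIs, summed over WT and CKO, 1 of 8 members was higher and 1 lower in progenitor-like cells, where 6.17% of all 9936 genes were at least 2-fold higher and 3.77% at least 2-fold lower. Since the members were chosen from that contrast, nothing is read from those counts. In endothelium-progenitor cells 1 of 5 was higher and 0 lower, against 8.98% and 5.81% of all genes, and in endothelium-like cells 1 of 8 was higher and 0 lower, against 5.08% and 7.48%. In erythroid-like cells 0 of 4 passed in either direction, against 10.51% and 3.01%. In stromal-like cells 1 of 9 was higher and 1 lower, against 6.16% and 3.61%. Ltbp1 made up the higher count in the progenitor-like, endothelium-progenitor and endothelium-like cells and Fst in the stromal-like cells, and the lower counts were Gdf3 and Eng. The median log2 ratio of the counted members was 0.56 in progenitor-like cells, where the median of all genes was 0.02, and 0.48, -0.07, 0.16 and 0.13 in the other classes in the order above, against -0.04, -0.09, 0.20 and -0.01.

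**Figure D4:**
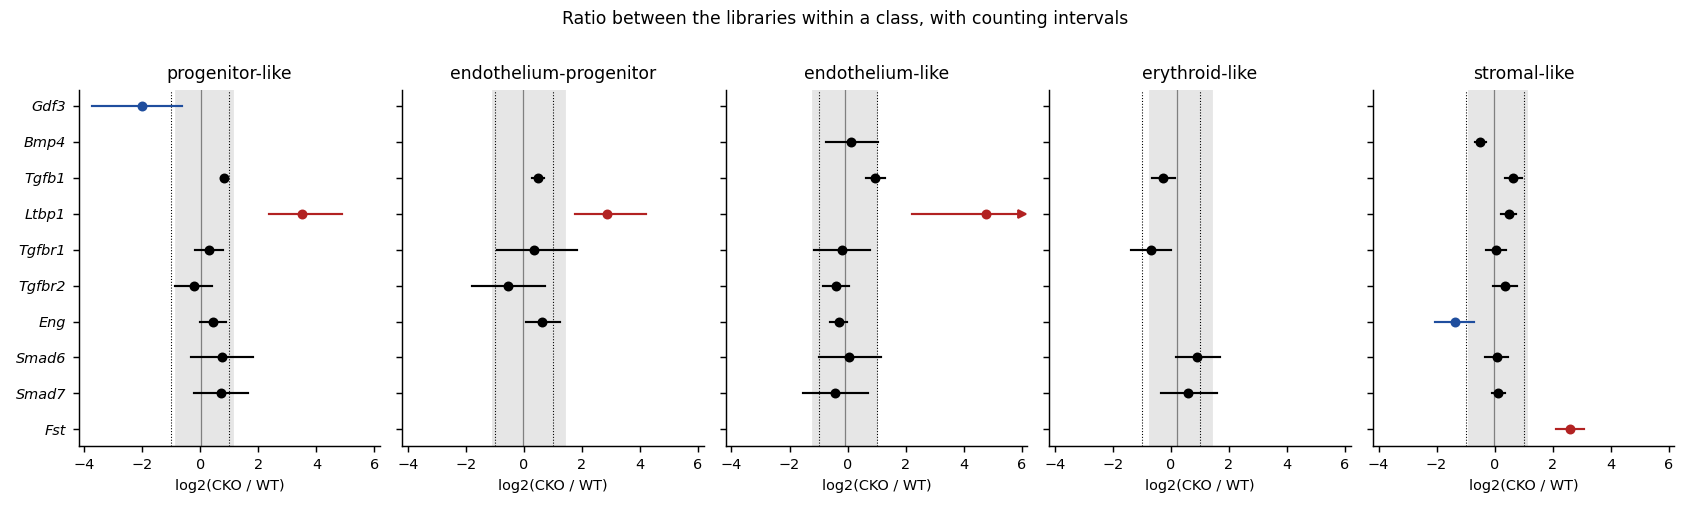
log2 of the CKO over WT ratio (horizontal axis) of each member with at least 20 UMIs, per class, with exact conditional binomial 95% intervals (an arrow where one runs off the axis). Grey bands span the 5th to 95th percentile of all genes, the grey line is their median and dotted lines mark 2-fold. Red marks a ratio at least 2-fold higher: Ltbp1 in progenitor-like, endothelium-progenitor and endothelium-like cells, and Fst in stromal-like cells. Blue marks a ratio at least 2-fold lower: Gdf3 in progenitor-like cells and Eng in stromal-like cells.

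The other 91 listed genes of the pathways gave the surrounding picture. In progenitor-like cells 7 of 30 counted were at least 2-fold higher and 1 lower, with a median log2 ratio of 0.46, against 6.17% and 3.77% of all genes. The BMP target genes Id2 and Id3, inhibitors of basic helix-loop-helix factors, had ratios of 7.48 (5.53 to 10.3) and 5.85 (4.88 to 7.04), at 8.50 and 63.5 CPM and at 24.7 and 144 CPM, while Id1 was 73.4 and 93.2 CPM. Skil, a Smad corepressor, had a ratio of 2.38 (1.69 to 3.37). The latency genes Thbs1 and Lrrc32 each had 2 WT UMIs, against 39 and 29 in CKO. Thbs1 was also among the 10 genes highest in CKO megakaryocyte-like cells over the other cells, and the part of megakaryocyte signal was not tested. Counts by role include the members. Of 7 counted latency and activation genes 3 passed, Thbs1, Lrrc32 and the member Ltbp1, which was chosen from this contrast. All 7 counted target genes had a ratio over 1, and 4 passed 2-fold. The members Smad6 and Smad7 were among the 7 and did not pass. As for Tgfb1, the cluster shared with WT differed from cluster 13: in cluster 2 Id2 was 8.26 CPM (WT) and 3.41 CPM (CKO), and in the CKO progenitor-like cells of cluster 13 it was 119 CPM, and Id3 was 31.1, 63.1 and 218 CPM. The smallest ratios with at least 50 UMIs were 0.213 (0.0876 to 0.449) for Fstl1, a follistatin-like protein, 0.905 for Smad4, the common Smad, and 0.965 for the activin receptor Acvr2b.

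In endothelium-progenitor cells 6 of 23 others were higher and 4 lower, against 8.98% and 5.81% of all genes. Id3 and Id2 again led the genes counted at 50 UMIs or more, with ratios of 6.79 and 4.67, followed by the pseudoreceptor Bambi at 2.18 (1.59 to 3.04). Lrrc32 had 0 UMIs in the 20 WT cells and 31 in CKO. Smad4 had the smallest, 0.378 (0.229 to 0.622), then Smad2 at 0.699 and Nrros at 0.744. In endothelium-like cells 2 of 29 were higher and 6 lower, against 5.08% and 7.48% of all genes, and 21 of 29 had a ratio under 1. The CKO side of this class included 21 cells of cluster 13, which held 0 WT endothelium-like cells. Their part in these ratios was not tested. Fstl1 was 0.394 (0.304 to 0.508), Smad4 0.422 (0.263 to 0.672) and Smad5 0.483 (0.263 to 0.875), and Smad1, a BMP receptor Smad, was 78.8 CPM in WT and 39.3 CPM in CKO. The largest ratios with at least 50 UMIs were 1.55 for Lrrc32, 1.35 for Smad2 and 1.19 for Nrros.

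Erythroid-like cells had 5 of 19 others higher and 1 lower, against 10.51% and 3.01% of all genes, at low levels: Bmp2 was 1.10 and 5.24 CPM (ratio 4.78) and Bmpr1a 1.28 and 4.92 CPM (ratio 3.84). Smad2 was 1.46, Smad4 0.574, Rnf111 0.682 and Bambi 0.800. Stromal-like cells had 6 of 55 higher and 1 lower, near the 6.16% and 3.61% of all genes. Bhlhe40, a transcriptional repressor, had 5 UMIs in WT and 67 in CKO (ratio 11.1, 4.53 to 35.3), Tgfb3 5.12 and 15.2 CPM (ratio 2.97) and Bmp2 15.9 and 46.1 CPM (ratio 2.90, 2.29 to 3.71). Thbs1, which activates latent TGF-beta, was 2.38 (1.80 to 3.18), while the BMP targets Id1 and Id2 were 1.08 and 0.985. The smallest with at least 50 UMIs were 0.615 for Id4, 0.622 for Zfyve9 and 0.644 for Fbn2. Smad4 was under 1 in all 5 compared classes, with intervals below 1 in the 4 other than progenitor-like. Naming Thbs1, Lrrc32, Id1 and Smad1 went beyond the rule for named genes and was done after their values were seen.

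**Figure D5:**
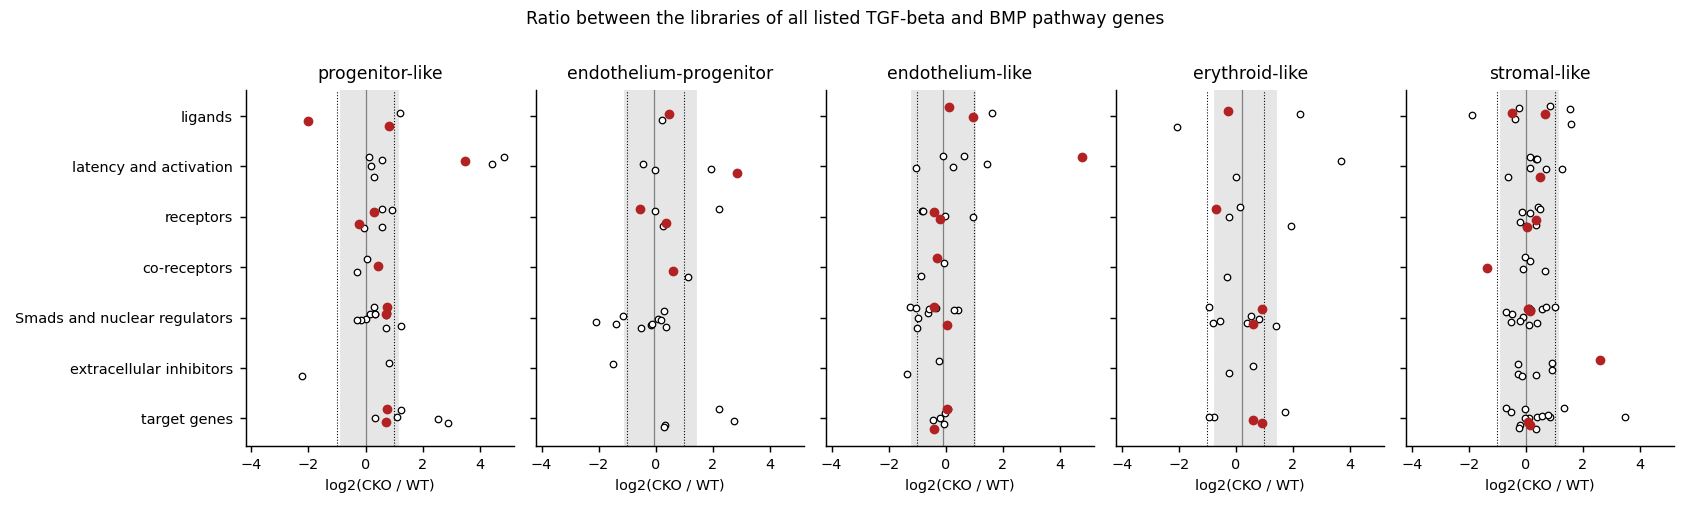
log2 of the CKO over WT ratio (horizontal axis) of every listed pathway gene with at least 20 UMIs, by role (rows, with points spread vertically for sight), in 5 classes; red points are the 10 members, open points the others, and bands and lines are as for all genes of the class. Lrrc32 in endothelium-progenitor cells has no WT UMI and is not drawn, and Fbn2 in endothelium-like cells (ratio 0.0192) lies left of the axis. Target genes and latency genes lie to the right in progenitor-like cells, and most points lie to the left of 0 in endothelium-like cells.

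Among the most abundant other genes of each role were Bmp2, Emilin1, Acvr2b, Bambi and Smad4. Emilin1, a matrix protein that limits TGF-beta processing, was 60.0 CPM in WT and 98.7 CPM in CKO stromal-like cells. Bambi was 193 and 179 CPM and Acvr2b 64.3 and 58.0 CPM there. Across the 14 class-by-library sums, the genes most like each member by Pearson r of log2(CPM + 1), out of 9379 genes, were Tac2 for Fst (0.998), Ppp1r14a for Bmp4 (0.983), Mta2 for Tgfb1 (0.977), Flt1 for Eng (0.964), Sh3gl1 for Tgfbr2 (0.963), Ascc1 for Ltbp1 (0.931), Fads1 for Smad6 (0.919), Snx24 for Tgfbr1 (0.918), Ext1 for Smad7 (0.914) and Mrps24 for Gdf3 (0.902). The next most like were Tmem132c and Fbln2 for Fst, Efna5 and Tuba1a for Bmp4, Ttc39b and Cmah for Tgfb1, Fam43a for Eng, Lmo1 and Athl1 for Ltbp1, Hip1 and Raph1 for Tgfbr2, Zfp931 and Yipf6 for Tgfbr1, Vopp1 and Maged2 for Smad6, Prrc1 and Clmp for Smad7, and Clptm1l and Wdr3 for Gdf3. The sums share 2 libraries and their depth, so these values only describe which profiles run alike. Between members the closest pair was Tgfbr2 and Eng (r = 0.815).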

How the data were processed

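Both count tables hold whole UMI counts per gene and cell barcode as the authors deposited them. The submitters' processing notes name Cell Ranger, Seurat and GRCm38. Barcodes under 500 genes or over 10% mitochondrial UMIs were dropped, and Scrublet at an expected rate of 1% marked 3 WT and 6 CKO doublets, which were left out. A class needed at least 4 markers with 2 or more UMIs, and erythroid-like cells also 2% globin UMIs. These cutoffs were set after marker counts were seen. UMIs were summed per class and library and given as CPM (UMIs per 1000000) with exact Poisson 95% intervals. Ratios used classes with at least 20 cells per library and genes with at least 20 UMIs. Where no UMI was seen, 3 counts set the limit. With 1 library per genotype no test was made. Joint Leiden clusters were computed with scanpy 1.11.5, other values with numpy 2.4.6 and scipy 1.17.1, and the interval code was tested on simulated data. Members and lists were chosen with earlier results of these data known. The rule for named genes took the 10 members, the 3 largest and 3 smallest ratios of other pathway genes with at least 50 UMIs per class, the most abundant of each role and the 3 genes most like each member. Alternatives changed the gate, filters, scaling, fold, doublets, sex and clustering, and 2 were chosen after seeing the data. RefSeq promoters (GRCm38.p6) matched 7 of the 10 members. Some genes are not reported here.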

Additional observations from a re-analysis of the deposited data

Results flagged for a closer look

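Fst gave a signal in cells the comparisons do not use: 42 UMIs lay in 6 of the 58 WT cells that passed no gate, at 31.1 CPM (22.4 to 42.0), and 5 of them had 2 or more UMIs. In CKO, 0 UMIs were seen in 28 such cells. The WT stromal-like cells held 40 UMIs, so the WT total of 82 is split between gated and ungated cells.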

How the results depend on the processing

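Of the ratios recomputed under the alternatives, 366 were labelled as moved by less than their counting interval, 34 as moved by more and 4 as reversed. Only ratios past 2-fold in the main setting could be labelled reversed, so the 4 do not count every change of direction. Ratios within 2-fold also crossed 1. Eng went from 0.809 to 1.17 in Xist-positive endothelium-like cells, and from 1.54 to 0.943 in endothelium-progenitor cells with a stricter gate. Smad6 in progenitor-like cells, over 1 in the main setting, was 0.154 by clusters. Over the 5 classes, members at least 2-fold higher numbered 4, against 1 by whole Leiden clusters, 7 in Xist-positive cells and 12 at a fold of 1.5. Members lower numbered 2, against 1 in Xist-positive cells, 1 in Y-positive cells and 1 without progenitor-like cells carrying other lineage markers. Other pathway genes higher numbered 26, against 15 by clusters, 12 in Y-positive cells, 58 with at least 5 UMIs and 43 at a fold of 1.5. Other pathway genes lower numbered 13, against 5 by clusters, 5 in Xist-positive cells, 27 with at least 5 UMIs and 24 at a fold of 1.5. In progenitor-like cells the Gdf3 ratio of 0.248 became 1.03 by clusters, 1.07 in Xist-positive cells and 1.14 without cells carrying other lineage markers. The Tgfb1 ratio of 1.77 became 1.57 with a looser gate, 1.07 by clusters, 2.18 in Xist-positive cells, 1.59 in Y-positive cells, 2.21 with only CKO cells lacking a Smarcc1 UMI and 1.25 without cells carrying other lineage markers. The Ltbp1 ratio of 11.3 became 0.410 by clusters, 53.7 in Xist-positive and 3.06 in Y-positive cells, and in endothelium-like cells 27.6 became 3.74 by clusters and 2.69 in Xist-positive cells. The Fst ratio of 5.99 became 4.23 with a looser gate and 8.87 without the cell richest in Fst of each library. The cause of these shifts was not tested. Clusters gave no endothelium-progenitor value. No paired analysis was possible because each genotype is 1 library. A gene at 0 in a class of 152 WT erythroid-like cells is limited only to 0.549 CPM.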

Other observations

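Id3 was also 39.7 CPM in 41 WT and 287 CPM in 8 CKO macrophage-like cells, and Bmp2 had 0 UMIs in 10 WT and 18.2 CPM in 51 CKO megakaryocyte-like cells. Fbn2, a fibrillin of the matrix that stores latent ligand, was 39.4 CPM (32 UMIs) in WT and 0.757 CPM (1 UMI) in CKO endothelium-like cells. These genes were picked after their values were seen.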
